A study of Mus musculus with 4 samples.

Results

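The prostaglandin and thromboxane synthesis enzymes were taken as 10 genes: Ptgs1, Ptgs2, Ptges, Ptges2, Ptges3, Tbxas1, Ptgis, Hpgds, Ptgds and Hpgd. A gene was measured where at least 1 probe set of the array carried its symbol and no other. Of the 10 genes, 8 were measured, by 13 of 34945 such probe sets, among 18193 genes measured in all. Both probe sets of Ptges3 are shared in the annotation with the pseudogene Ptges3-ps, so no level is given for it, and Ptgs1 was not analysed here. Where a gene had several probe sets, its main value came from the one whose mean over the 4 arrays was highest, and the others are reported beside it. The measured genes lie on chromosomes 1, 2, 6 and 8, and 0 of them lie on chromosome 11 with Alox15.

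The arrays held RNA of bone marrow cells sorted by flow cytometry as Lin-c-Kit+Sca-1+, a gate that holds blood stem cells together with multipotent progenitors. There were 2 arrays from WT mice and 2 from Alox15-/- mice. Both groups were of strain C57BL/6 (B6), at an age of 8 weeks, and the label of each pair of arrays calls them biological replicates. The sources used here do not state the construct behind the deletion, the sex of the mice, any treatment or how many mice stand behind each array. The p-values therefore set a difference only against the spread of these arrays within groups, part of which may be technical. With 2 arrays a group the precision is limited. Values are log2 signals, so a difference of 1 is a doubling.

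Prostanoids are made from arachidonic acid that phospholipases free from membranes. The cyclooxygenases Ptgs1 and Ptgs2 turn it into prostaglandin H2, and a terminal synthase then turns that intermediate into prostaglandin E2, D2 or F2alpha, prostacyclin or thromboxane A2. Lipoxygenases such as the product of Alox15 draw on the same arachidonic acid. Prostaglandin E2 is known for acting on blood stem cells through receptors that raise cAMP, and thromboxane A2 is known best as a platelet product.

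The label was checked first at Alox15, the arachidonate 15-lipoxygenase gene named in the genotype. On the WT arrays its probe set read 4.63 and 4.35, and on those labelled Alox15-/- it read 10.68 and 10.75, so the signal ran against the label. The highest of 27 bacterial control probe sets, used here as the background on each array, read 4.95 to 5.17, so Alox15 was below background in WT. Set against the WT mean of that control, the signal was at least 53.5-fold higher under the label Alox15-/-. The sources used here do not say which part of the gene was deleted, and a probe set outside that part would check nothing. The cause of the higher signal was not tested, nor was whether the group labels were exchanged. If they were, every direction below would reverse. Directions below are those of the arrays as labelled, given as Alox15-/- minus WT. Kit, the receptor used in the sort, read 10.23 to 10.63 on the 4 arrays, and Ly6a, which encodes Sca-1, was not analysed here. Pearson's r between arrays, across probe sets that are not independent replicates, was 0.986 to 0.990.

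Of the 8 measured enzymes 7 were above background on all 4 arrays, as were 71.5% of all genes, and none passed the test: limma placed 0 of 8 at an adjusted p under 0.05. Over all genes 0.0055% were called higher, Alox15 alone, and 0% lower. At an unadjusted limma p under 0.05 there was 1 of 8, Tbxas1, against 7.77% of all genes. The difference was positive for 4 enzymes and negative for 4, and their median was -0.08, against 0.02 over all genes. The groups did not overlap for 3 enzymes that were lower, Ptgs2, Ptges2 and Tbxas1, where 17.1% of all genes were lower in this way. They did not overlap for 2 that were higher, Ptges and Hpgd, where 21.4% of all genes were. With 2 arrays against 2 an exact permutation test of a single gene cannot give a two-sided p below 0.333.

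**Figure D1:**
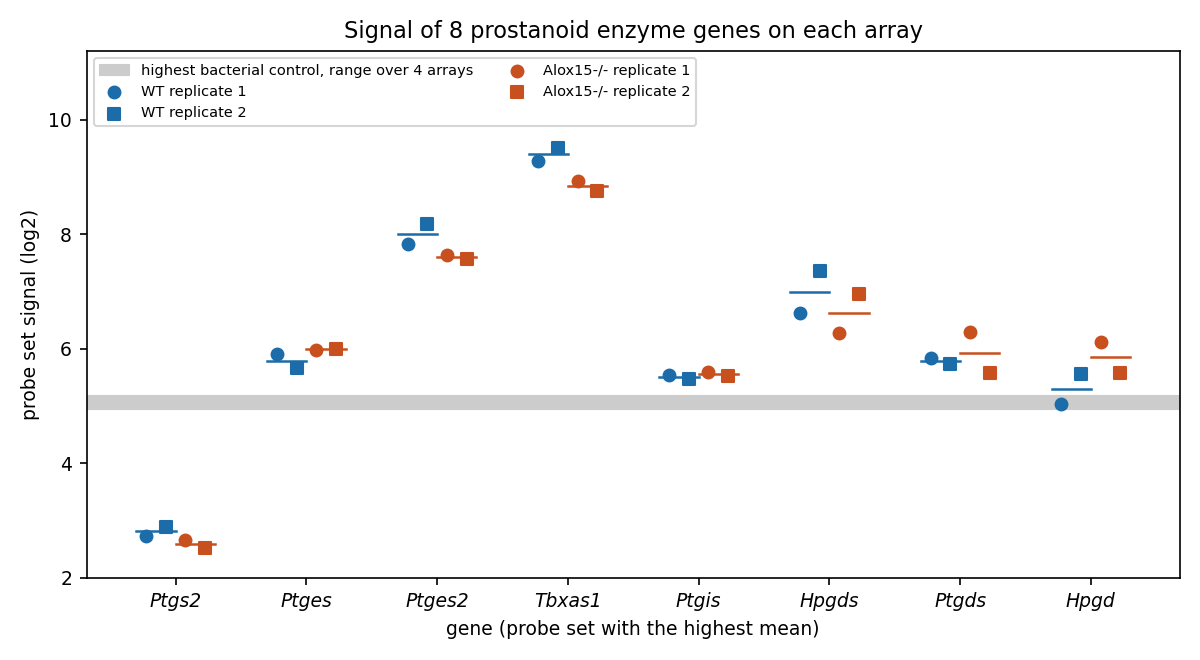
Log2 signal (vertical axis) of the 8 measured enzymes at the probe set used, with a point for each array and a short line for each group mean. The grey band is the range of the highest bacterial control over the 4 arrays. Tbxas1 and Ptges2 stand well above the band with WT above Alox15-/-, Ptgs2 lies far below it, and Ptges, Ptgis, Ptgds and Hpgd lie close to it.

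Among the cyclooxygenases, Ptgs2, the inducible enzyme of the first committed step, was below background on every array. At the probe set used, 1417263_at, it read 2.73 and 2.89 in WT and 2.66 and 2.52 in Alox15-/-. At its other probe set, 1417262_at, it read 2.42 and 2.28 in WT and 2.05 and 2.25 in Alox15-/-. These signals exceeded 3.52% to 6.35% of all probe sets at the first and 0.750% to 2.84% at the second. Both probe sets were lower in Alox15-/- with groups that did not overlap, by a gap of 0.07 at the first and 0.03 at the second. Since neither signal stood above background in either group, no fold change is given for Ptgs2, whose limma adjusted p was 0.745.

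The prostaglandin E synthases differed in level and in direction. Ptges2, which encodes a membrane-associated prostaglandin E synthase, read 7.84 and 8.18 in WT (mean 8.01 ± 0.24, SD, n = 2) and 7.64 and 7.57 in Alox15-/- (mean 7.60 ± 0.05, SD, n = 2). Both WT arrays were above both Alox15-/- arrays, and all 4 readings were well above background. The difference was -0.41 ± 0.16 (SE), or a level of 75.5% of WT, with a 95% interval of -0.82 to 0.01 and limma adjusted p = 0.655. WT replicate 2 weighed on this value: without it the difference was -0.23, and without WT replicate 1 it was -0.58.

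Ptges, the inducible microsomal enzyme that works with Ptgs2, was close to background. Its main probe set, 1449449_at, read 5.91 and 5.66 in WT and 5.98 and 6.00 in Alox15-/-. The Alox15-/- arrays were the higher ones, but the difference of 0.21 ± 0.15 (SE) was smaller than the 0.24 between the WT arrays, with limma adjusted p = 0.768. It ran from 0.08 without WT replicate 2 to 0.33 without WT replicate 1. The other 2 probe sets of Ptges did not read alike. The second, 1449450_at, read 5.21 and 5.59 in WT and 5.85 and 5.42 in Alox15-/-, which overlapped. The third, 1439747_at, read 4.995 and 5.60 in WT and 4.77 and 4.25 in Alox15-/-, a difference of -0.79 in the opposite direction. It was above background on 1 array only, WT replicate 2, and in the limma fit over all 34945 probe sets its adjusted p was 0.622. With the mean of the 3 probe sets, Ptges had a difference of -0.12, so no direction is given for this gene.

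Tbxas1, which encodes thromboxane A synthase, a cytochrome P450-family enzyme of platelets and macrophages, had the clearest separation of the 8 enzymes. It read 9.28 and 9.51 in WT (mean 9.39 ± 0.16, SD, n = 2) and 8.93 and 8.76 in Alox15-/- (mean 8.85 ± 0.12, SD, n = 2). The lower WT array was 0.35 above the higher Alox15-/- array, and the signal exceeded 79.9% to 87.2% of all probe sets. The difference was -0.55 ± 0.15 (SE), with a 95% interval of -0.93 to -0.16, which is a level of 68.4% of WT. It was larger than the gap of 0.23 between the WT arrays and of 0.17 between the Alox15-/- arrays. Its unadjusted limma p was 0.0140 and its adjusted p 0.580, and 2.37% of all genes had a larger absolute moderated t. Without any 1 array the difference stayed between -0.66 and -0.43.

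Ptgis, which encodes prostacyclin synthase, had nearly the same signal on every array. It read 5.54 and 5.47 in WT and 5.59 and 5.53 in Alox15-/-, just above background. The groups overlapped, and the difference was 0.06 ± 0.13 (SE) with a 95% interval of -0.27 to 0.38 and limma adjusted p = 0.935. A signal so near background leaves little room for a lower level to be read.

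The 250 bases before the RefSeq start of Tbxas1 and of Ptges2 are shown, chosen after their values were seen, because these are the 2 enzymes above background on every array whose groups were separated by more than 0.1. The windows come from RefSeq on build GRCm38.p6, where 9 of the 10 genes had an entry, and run 5′ to 3′ on the gene's strand. Capitals mark matches to 8 motifs searched on both strands. The letters searched were TATAAA for a TATA box, GGGCGG for a GC box, CACGTG for an E-box and AGATAA for sites of the GATA family. The others were GAGGAA for the core of sites bound by ETS factors such as PU.1, TGACTCA for AP-1, TGACGTCA for the cAMP response element, and CCAAT. Matches of different motifs may overlap.
Tbxas1, chr6:38918736-38918985, + strand: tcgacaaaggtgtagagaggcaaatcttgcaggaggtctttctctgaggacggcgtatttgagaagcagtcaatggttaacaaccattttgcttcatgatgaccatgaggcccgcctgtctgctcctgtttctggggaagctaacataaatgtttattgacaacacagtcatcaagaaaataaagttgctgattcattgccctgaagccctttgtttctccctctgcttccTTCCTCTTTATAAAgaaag
Ptges2, chr2:32395640-32395889, + strand: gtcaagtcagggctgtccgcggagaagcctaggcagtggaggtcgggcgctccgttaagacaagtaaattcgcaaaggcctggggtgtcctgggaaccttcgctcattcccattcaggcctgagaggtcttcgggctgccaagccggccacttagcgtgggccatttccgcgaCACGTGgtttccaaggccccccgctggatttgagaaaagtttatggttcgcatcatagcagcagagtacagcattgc
Close to its end the window of Tbxas1 held TATAAA on both strands in overlapping letters, beginning 13 and 11 bases before the start and directly after GAGGAA on the other strand. TATAAA was found in 12.4% of all 32817 windows of this length, and among the 9 enzyme windows in that of Tbxas1 alone. The ETS core GAGGAA was found in 23.3% of all windows and in 6 of the 9, those of Ptgs1, Ptgs2, Ptges, Tbxas1, Hpgds and Hpgd. The window of Ptges2 held the E-box CACGTG 77 bases before the start, a motif found in 6.02% of all windows and in no other enzyme window. The windows of Tbxas1 and Ptges2 thus shared none of the 8 motifs. The cAMP response element was found in 1.55% of all windows and in 0 of the 9. A match describes letters in this window and was not tested as a site.

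The groups overlapped for both prostaglandin D synthases. Hpgds, the haematopoietic enzyme known from mast cells and megakaryocytes, read 6.62 and 7.36 in WT and 6.28 and 6.96 in Alox15-/-. Replicate 2 was the higher array in both groups, and the spread within each group was larger than the difference between them. The difference was -0.37 ± 0.33 (SE), with a 95% interval of -1.21 to 0.46 and limma adjusted p = 0.817. Leaving out WT replicate 2 gave -0.0038, and leaving out Alox15-/- replicate 1 gave -0.03. Leaving out the other array of either group gave -0.74 for WT and -0.71 for Alox15-/-. The gap of 0.74 between the WT arrays was the widest of the 8 enzymes, and that between the Alox15-/- arrays was 0.68.

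Ptgds, the lipocalin-type enzyme known best from brain, read 5.83 and 5.74 in WT and 6.29 and 5.57 in Alox15-/-. The Alox15-/- arrays lay on both sides of the WT arrays, and the difference was 0.15 ± 0.25 (SE) with limma adjusted p = 0.915. Without Alox15-/- replicate 1 it was -0.21. At its other probe set, 1423859_a_at, Ptgds read 5.49 and 4.90 in WT and 5.53 and 5.57 in Alox15-/-, a difference of 0.36 with groups that did not overlap by a gap of 0.05. WT replicate 2 was below background there.

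Hpgd, which encodes the dehydrogenase that inactivates prostaglandins, had the largest positive difference of the 8, at a level close to background. It read 5.03 and 5.56 in WT and 6.12 and 5.57 in Alox15-/-. The groups were separated by 0.02, which is the distance between WT replicate 2 and Alox15-/- replicate 2. The difference was 0.55 ± 0.26 (SE), about as wide as the gaps of 0.53 within WT and 0.55 within Alox15-/-, with a 95% interval of -0.11 to 1.22 and limma adjusted p = 0.686. Leaving out replicate 1 gave 0.29 for WT and 0.28 for Alox15-/-, and leaving out replicate 2 gave 0.82 and 0.83. The second probe set of Hpgd, 1419905_s_at, read 4.78 and 5.43 in WT and 5.20 and 5.23 in Alox15-/-, with a difference of 0.11 and groups that overlapped.

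**Figure D2:**
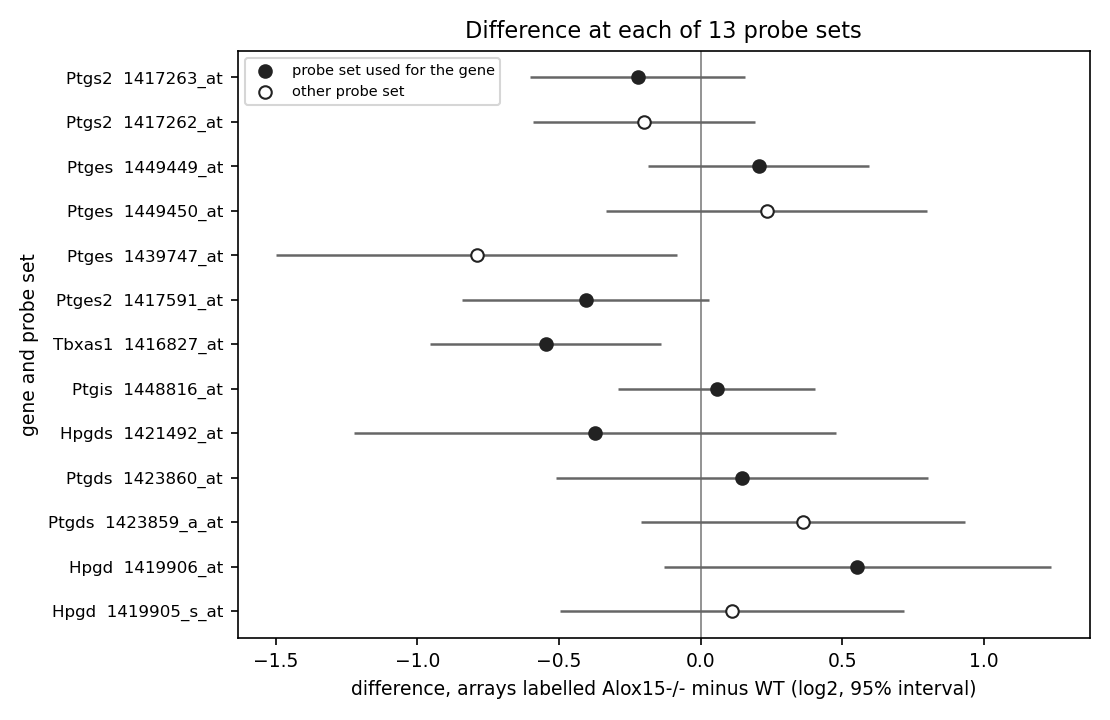
Difference between the arrays labelled Alox15-/- and WT (horizontal axis, log2) at each of the 13 probe sets, with the 95% interval of the limma fit over all 34945 probe sets. Filled points are the probe sets used for the gene. The interval leaves out 0 at Tbxas1 and at 1 probe set of Ptges, whose other 2 probe sets lie on the opposite side of 0.

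Over the 13 probe sets, limma in the fit over all probe sets called 0, against 0.00572% of all probe sets. At an unadjusted p under 0.05 there were 2, against 7.7% of all probe sets. The groups did not overlap for 5 probe sets that were lower, where 17.2% of all probe sets were, and for 3 that were higher, where 21.3% were. For Ptgs2, Ptgds and Hpgd the probe sets had the same sign, and for Ptges they did not. The arrays differed in how often they were the extreme one: WT replicate 2 was the highest array for 4 of the 8 enzymes, Ptgs2, Ptges2, Tbxas1 and Hpgds, and for 25.6% of all genes. WT replicate 1 was the highest for 0 of the 8 enzymes and for 24.7% of all genes. Alox15-/- replicate 2 was the lowest array for 4 of the 8 enzymes and for 21.7% of all genes.

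Other genes of the pathway were read from 7 lists, and limma called 0 of their 51 measured genes (3, or 5.88%, at an unadjusted p under 0.05, against 7.77% of all genes). Of the genes that supply arachidonic acid, 5 of 6 were measured, 2 higher and 3 lower, with a median of -0.01. Pla2g4a, the cytosolic phospholipase A2, read 9.08 and 9.03 in WT and 9.08 and 9.40 in Alox15-/-, a difference of 0.19 with overlap. Pla2g10, a secreted phospholipase, differed by -0.31. Mgll, a monoacylglycerol lipase, differed by -0.21 at a probe set above background on 1 of 4 arrays, and by 0.03 to 0.32 at its other probe sets. The median of this list turned to 0.08 without Alox15-/- replicate 1, to 0.19 without the lowest 50 percent of genes and to 0.10 with the mean of all probe sets of each gene, so it has no settled sign. Of the prostaglandin F synthases and carbonyl reductases 6 of 8 were measured, 4 higher and 2 lower, with a median of 0.08, which was 0.15 without WT replicate 1 or without Alox15-/- replicate 2 and -0.15 without the lowest 50 percent of genes. Prxl2b, a prostaglandin F synthase, differed by 0.26 and Cbr1, a carbonyl reductase, by -0.15. Cbr3 differed by 0.44 with groups that overlapped and was above background on 2 of 4 arrays, 1 in each group, and Akr1b8 and Akr1c18 were below background on every array.

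The genes of prostaglandin transport and of the later steps of breakdown were all measured, 4 of 5 higher, with a median of 0.20. The groups did not overlap for 3 that were higher, where 21.4% of all genes were. Ptgr1, a reductase that acts on the product of Hpgd, read 8.61 and 8.44 in WT and 9.20 and 9.19 in Alox15-/-. Both Alox15-/- arrays were above both WT arrays, and the difference of 0.67 had an unadjusted limma p of 0.00361 and adjusted p = 0.502. Abcc4, an exporter of prostaglandins, differed by 0.32 and Ptgr2, a second reductase, by 0.20. Other probe sets of Ptgr2 ran from -0.69 to 0.22. With the mean of all probe sets of each gene the list's median was -0.06.

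All 9 prostanoid receptors were measured, 4 higher and 5 lower, with a median of -0.03. The median was between 0.01 and 0.06 without any 1 array and 0.12 with the mean of all probe sets of each gene, so it has no settled sign. The receptors of prostaglandin E2 coupled to a rise in cAMP had signal on every array: Ptger4 read 8.94 to 9.14 and Ptger2 7.51 to 8.45, and both overlapped between the groups. The other probe set of Ptger4 differed by 0.38. Ptger3 differed by 0.18 and by 0.70 at its other probe set, and Ptgir, the prostacyclin receptor, by 0.22. Ptgdr and Ptgfr were below background on every array. The receptor of thromboxane is in this list as well, and no receptor reached an unadjusted limma p under 0.05.

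The lipoxygenase and leukotriene list, without Alox15, had 6 higher and 3 lower of 9, with a median of 0.07. That median was 0.19 without WT replicate 1 and -0.06 without WT replicate 2, so its sign rests on single arrays. Alox5ap, which presents arachidonic acid to 5-lipoxygenase, differed by 0.31 with groups that did not overlap, Aloxe3 by 0.14 and Alox12b by -0.17. The cAMP response genes had 4 higher and 6 lower of 10, with a median of -0.12, which was -0.19 without WT replicate 1, -0.06 without Alox15-/- replicate 1 and -0.20 without Alox15-/- replicate 2. Crem, a cAMP-responsive modulator, read 6.81 and 7.37 in WT and 5.98 and 6.29 in Alox15-/-, a difference of -0.95 with an unadjusted limma p of 0.00813 and adjusted p = 0.570. Its other probe sets gave -0.21 to -0.09. Pde4b, a phosphodiesterase that breaks down cAMP, differed by -0.40, and from -0.21 to 0.23 at its other probe sets, and Dusp1 by -0.27.

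Ptges3 encodes p23, which is also a co-chaperone of Hsp90, so Hsp90 and its other partners were read in its place. Of 10 listed genes 7 were measured, 6 higher and 1 lower, with a median of 0.07, which ran from -0.01 without WT replicate 1 to 0.14 without WT replicate 2 or Alox15-/- replicate 1. Fkbp5 differed by 0.26, and from -0.19 to 0.43 at its other probe sets, Hsp90aa1 by 0.12 and Stip1 by 0.10. These values describe the partners and not Ptges3.

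**Figure D3:**
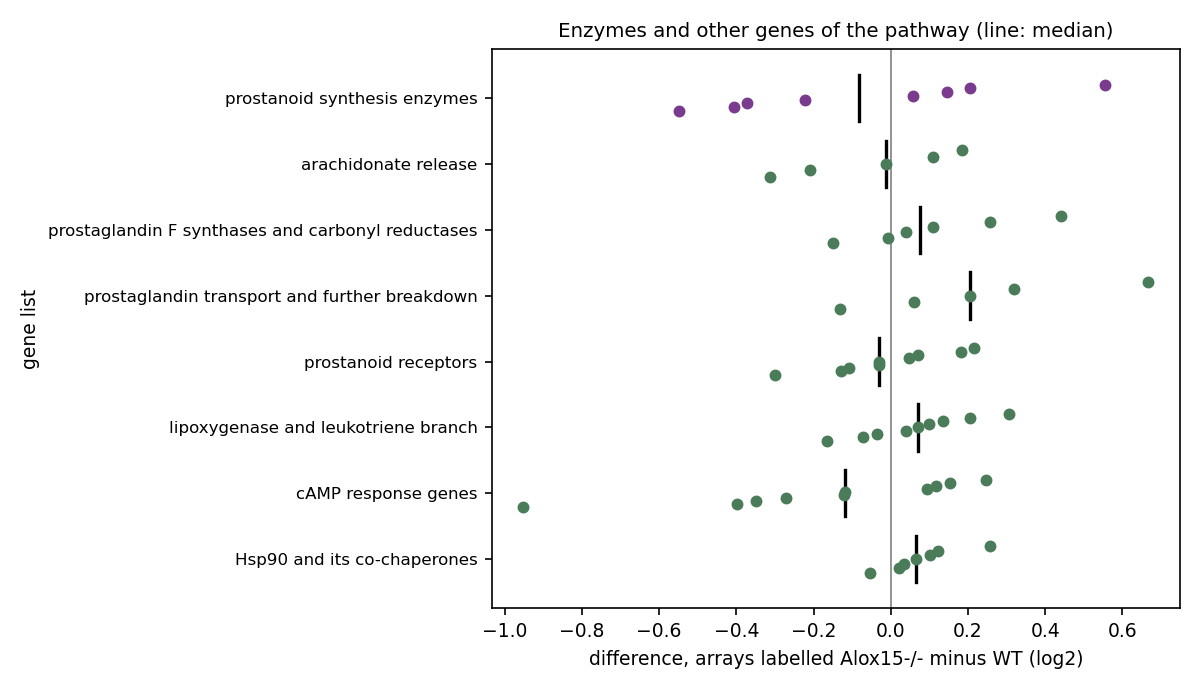
Difference between the arrays labelled Alox15-/- and WT (horizontal axis, log2) for each measured gene of the 8 enzymes and of the 7 pathway lists, with a vertical line at each list's median. The enzymes spread from -0.55 to 0.55 on both sides of 0, and the lowest point is Crem at -0.95.

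Cells of other lineages make several of these enzymes, so their markers were read on the same arrays, and their part in the results was not tested. Of 9 measured megakaryocyte and platelet markers, which belong to a lineage rich in Tbxas1, 4 were higher and 5 lower with a median of 0.00. Their summed linear signal was 1016 and 1271 in WT and 1010 and 1059 in Alox15-/-, ranges that overlapped. Itga2b differed by 0.25, Pf4 by -0.47 and Gp9 by 0.09, while Gp1bb, Gp5 and Gp6 were below background on every array. WT replicate 2 was the highest array for Tbxas1 and Hpgds. It was also the highest for 2 of the 9 markers, Pf4 and Ppbp, and for 25.6% of all genes. Another array was the highest for the other 7, which include Gp1bb, Gp5 and Gp6, below background throughout. Of the markers named after their values were seen, Treml1 was above background on every array and read 5.83 and 5.73 in WT and 5.47 and 5.36 in Alox15-/-, lower without overlap. Ppbp was above background on WT replicate 2 alone and differed by -1.65, lower without overlap. Of the 9 markers, 3 were lower without overlap, where 17.1% of all genes were. In the other direction 2 were higher without overlap, where 21.4% of all genes were.

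**Figure D4:**
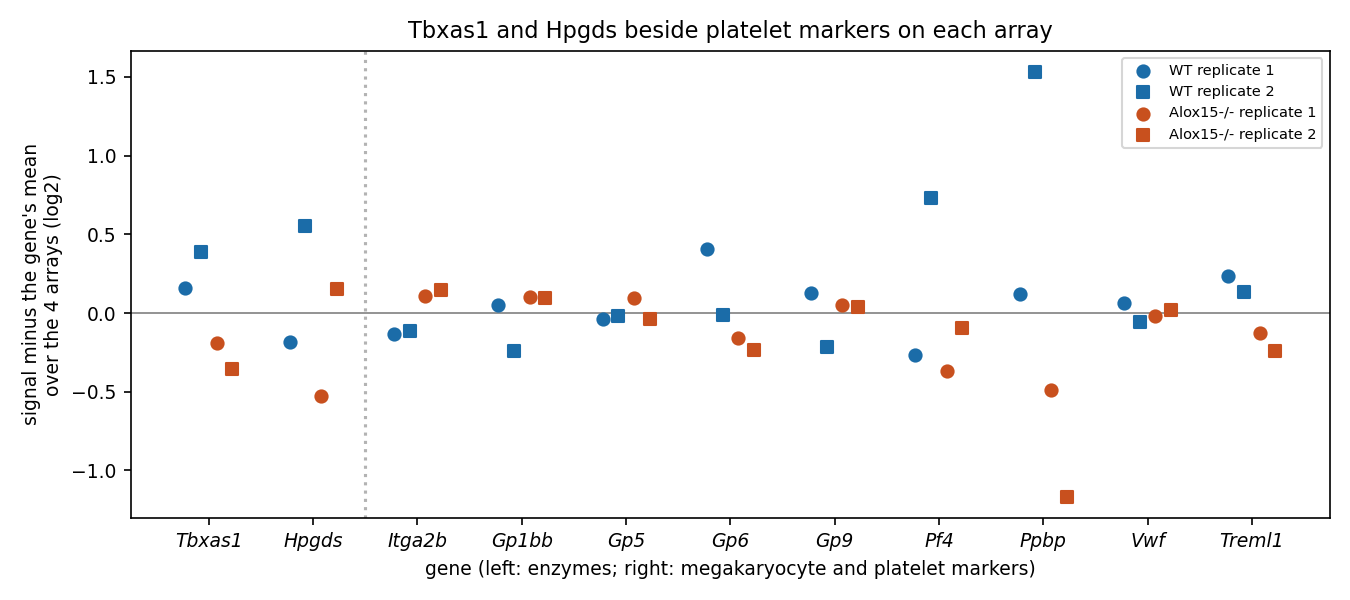
Signal of each array minus the gene's mean over the 4 arrays (vertical axis, log2) for Tbxas1, Hpgds and the 9 measured megakaryocyte and platelet markers. WT replicate 2 is the highest array for Tbxas1, Hpgds, Pf4 and Ppbp, and not for the other 7 markers. Of those 7, Gp1bb, Gp5 and Gp6 were below background on every array.

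Of the macrophage and monocyte markers 9 of 11 were higher, with a median of 0.42. Their summed linear signal was 4155 and 4507 in WT and 5787 and 4589 in Alox15-/-. Lyz2 differed by 0.06, Csf1r by 0.34 and Cd68 by -0.27, and Adgre1 was below background on every array. Higher without overlap were 4 of the 11, where 21.4% of all genes were. These were F13a1 by 1.76, Mrc1 by 1.92, Ccr2 by 1.00 and C1qa by 0.42. Lower without overlap was 1, Cd68, where 17.1% of all genes were. Ccr2 was below background on both WT arrays and differed by 0.04 to 1.15 at its other probe sets. Mrc1 was below background on WT replicate 1. Of the mast cell and basophil markers 8 of 9 were higher, 6 of them without overlap, with a median of 0.39. Their summed linear signal was 648 and 442 in WT and 716 and 802 in Alox15-/-. Mcpt8 differed by 0.65, Cpa3 by 0.84 and Hdc by 0.66, and Fcer1a, Mcpt4 and Tpsab1 were below background on every array. Neutrophil markers were higher for 9 of 9, 7 of them without overlap, with a median of 0.86. The summed linear signal of all 9 was 6729 and 7607 in WT and 10460 and 10157 in Alox15-/-. Mpo differed by 0.36, S100a9 by 1.46 and S100a8 by 1.64. A summed linear signal rests mostly on the genes with the highest signal. These were Mpo, at 12.56 to 12.95, among the neutrophil markers and Lyz2, at 11.67 to 11.91, among the macrophage and monocyte markers. In bulk RNA a smaller share of cells of one type and less RNA of a gene in each cell cannot be told apart.

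The markers of the sort itself and of stem cells were lower for 5 of 7, with a median of -0.11. Their summed linear signal was 13880 and 13181 in WT and 11748 and 11411 in Alox15-/-. Hlf, a stem cell transcription factor, differed by -0.77, Procr by -0.25, Kit by -0.27 and Cd34 by 0.06. Slamf1 differed by 0.32, higher without overlap, and from -0.25 to 0.73 at its other probe sets. Of endothelial markers, a lineage rich in Ptgis, 2 of 5 were higher with a median of -0.18, and Cdh5 was below background on every array. Stromal markers were higher for 6 of 9 with a median of 0.08 and erythroid markers for 2 of 7 with -0.08. B cell markers were higher for 4 of 5 with 0.12, and T and NK cell markers for 6 of 7 with 0.14. Within these lists Sparc (stromal) differed by 1.32, Klf1 (erythroid) by 0.87 and Vpreb1 (B cell) by 1.03, each higher without overlap. Other probe sets of Sparc ran from -0.02 to 0.80. Tfrc (erythroid) was lower without overlap, by -0.24. Of the B, T and NK cell markers Ms4a1, Cd3e, Cd3g and Ncr1 were below background on every array. The control probe sets at the 3′ and 5′ ends of Gapdh read 3′ above 5′ by 2.37 and 2.39 in WT and 2.14 and 2.17 in Alox15-/-, a separation of the same groups whose part in the results was not tested. Limma called 0 of the 78 measured markers in these 10 lists. At an unadjusted limma p under 0.05 there were 18, or 23.1% of them, against 7.77% of all genes. The lists were chosen with earlier results of these data known, so this share is not independent of them.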

How the data were processed

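Per the labels' protocols, RNA was amplified with a whole-transcript sense labelling kit. The names of the probe sets are those of a 3′ expression array, which takes targets of the other strand. What was hybridised is not settled here, and this bears on any comparison of the 3′ and 5′ ends of a transcript. Per the submitters' processing notes, the authors made the deposited log2 values in Affymetrix Expression Console 1.1 by RMA, a method of background subtraction, quantile normalization and summary per probe set. The deposited columns hold 1195 to 1228 distinct values each, so small differences are coarse. No genome build is named in the sources used here. Of 45101 probe sets, 34945 had 1 symbol in the platform annotation once 64 Affymetrix controls were left out, 932 had several, and the rest had none or were controls. The highest of 27 Bacillus subtilis control probe sets on each array served as background.

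The difference Alox15-/- minus WT was fitted over all genes by limma 3.58.1 under R 4.3.3, as a two-sided moderated test from lmFit and eBayes without block or filter, with Benjamini-Hochberg adjustment over all 18193 genes and a threshold of 0.05. The code was tested on simulated data. The enzymes and gene lists were chosen with earlier results of these data known, and lists are described by counts and medians without a test. Named were all enzymes, Alox15, Kit, up to 3 genes of each pathway list with the largest absolute moderated t, and up to 3 of each marker list with the highest mean. Ptger2, Ptger4, Ppbp, Treml1 and the genes named as below background were added after their values were seen. So were Slamf1, F13a1, Mrc1, Ccr2, C1qa, Klf1, Tfrc, Vpreb1 and Sparc. Replicate numbers were not used to pair the samples: over all genes the deviations of same-numbered arrays correlated at -0.02. That value cannot show whether same-numbered samples were prepared together. Sequences are from RefSeq on GRCm38.p6. Alternatives covered normalization, dim genes, variance moderation, probe sets, a replicate block and each array left out. Figures were drawn with matplotlib 3.10.9.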

Additional observations from a re-analysis of the deposited data

How the results depend on the processing

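The count of enzymes past the threshold was 0 in every setting tried, and the lowest limma adjusted p that any enzyme reached was 0.379. Settings for variance, for the replicate block and for dim genes leave the difference of a kept gene as it is. So does testing every probe set on its own, where the same probe set was read, and the mean of probe sets for an enzyme with 1 probe set. Leaving out 1 array cannot reverse an enzyme whose groups did not overlap. Such values could not reverse, and they are part of the 113 values of single enzymes under other settings. Quantile normalization again and median centring could move values little, since the sorted columns differed by 0.0325 at most. Of these 113, 111 kept their direction, a count that includes the values that could not reverse and so does not measure robustness. The exceptions were Ptges, at -0.12 with the mean of its probe sets, and Ptgds, at -0.21 without Alox15-/- replicate 1 (-0.21 to 0.51 over the 4 arrays left out in turn). Over all genes the count was 22 with a mean-dependent prior variance, 2 with every probe set tested on its own, and 0 without each of the 4 arrays in turn, in fits where a lone array is assumed to vary like the other group. It was 1 with the replicate block, and the cause of these changes was not tested. The replicate block, which the data did not support as a pairing, gave 1326 genes at an unadjusted p under 0.05 against 1414 without it, and changed no call among the enzymes. Enzymes removed by a filter on dim genes have no value there, which holds for Ptgs2 under both filters and for Ptges, Ptgis, Hpgds, Ptgds and Hpgd without the lowest 50 percent of genes. Of 105 medians of pathway lists, 16 moved by more than the spread between replicates, and the settings for variance and block could not move any. Signal close to background limits Ptges, Ptgis, Ptgds and Hpgd, and Ptgs2 lay below it.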
